A study of Mus musculus with 6 samples.

Results

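The Hox genes of clusters A to D were described here: all 38 genes, of 38924 in the count table, whose symbol is Hox, a cluster letter a to d and a number. They were 11 genes of HoxA, 10 of HoxB, 9 of HoxC and 8 of HoxD. The number is the paralog number: it runs along each cluster, so that 1 to 3 are anterior genes, 4 to 8 central and 9 to 13 posterior. Hoxd4 was not analysed here. The libraries were polyadenylated RNA from 6 mouse cell samples. Quiescent satellite cells (QSC), the resting stem cells of skeletal muscle, came from 2 animals, named mouse 1 and mouse 3. Activated satellite cells (ASC, 1 library) carry a title that marks them Pax7-plus and p1. Induced myogenic progenitor cells (iMPCs), which are fibroblasts reprogrammed to a muscle progenitor state, were sorted into a fraction positive and a fraction negative for a nuclear green fluorescent Pax7 reporter (1 library each). Mouse embryonic fibroblasts (MEFs) had 1 library. Per the labels' protocols, expanded iMPC cultures were grown without doxycycline and with forskolin (5 µM), RepSox (5 µM) and a GSK3 inhibitor (3 µM). One protocol text covers all samples. It names MEFs and tail-tip fibroblasts as starting cells without saying which of them gave these iMPCs, so the MEF library is a fibroblast reference and not a known parent of the sorted cells. The labels give neither strain, age nor the muscle and body position from which the satellite cells were taken, nor the embryo parts used for the MEFs.

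Hox proteins are transcription factors that bind DNA through a homeodomain and give cells along the body axis and the limb their positional identity. Genes at the 3′ end of a cluster, with low numbers, act in anterior parts. Genes at the 5′ end act in the trunk, the tail and, for HoxA and HoxD, the distal limb. Adult fibroblasts and muscle cells keep much of the Hox pattern of the place they came from, and Polycomb and Trithorax complexes hold the silent and active states of the clusters.

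Paralogs of the same number in different clusters encode close homeodomains, and the results below turn on which cluster's copy is used. The 180-base homeobox of group 10 is shown because Hoxa10 and Hoxc10 carried much of the QSC signal. Sequences were read from GENCODE M21 transcripts (GRCm38), 5′ to 3′ on the coding strand. Capitals mark bases that differ from Hoxa10, which lies at chr6:52232554-52232733 (minus strand, exon 2 of 2). Hoxc10 lies at chr15:102970848-102971027 and Hoxd10 at chr2:74694141-74694320, both on the plus strand in exon 2 of 2.
Hoxa10: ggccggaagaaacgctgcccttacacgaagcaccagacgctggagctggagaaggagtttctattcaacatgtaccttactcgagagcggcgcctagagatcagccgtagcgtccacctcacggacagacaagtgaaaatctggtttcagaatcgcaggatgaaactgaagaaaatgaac
Hoxc10: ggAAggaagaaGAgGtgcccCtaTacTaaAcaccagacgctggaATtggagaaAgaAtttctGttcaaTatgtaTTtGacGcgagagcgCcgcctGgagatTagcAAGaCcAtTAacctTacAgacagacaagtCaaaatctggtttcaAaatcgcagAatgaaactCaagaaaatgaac
Hoxd10: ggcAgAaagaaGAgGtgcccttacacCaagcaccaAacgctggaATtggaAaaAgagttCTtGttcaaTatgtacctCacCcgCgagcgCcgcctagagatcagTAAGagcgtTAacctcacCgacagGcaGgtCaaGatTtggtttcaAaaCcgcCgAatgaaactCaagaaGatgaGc
Hoxc10 shared 80.6% and Hoxd10 78.9% of bases with Hoxa10. Over all 38 members, homeobox identity had a median of 80.6% in the 39 pairs of the same number (67.2% to 93.9%). It was 61.7% in the 164 pairs within a cluster and 60.3% in the 500 pairs that shared neither. The longest identical stretch of transcript between members of different clusters was 52 bases. Within a cluster the models of Hoxc10 and Hoxc5 share 168 bases, so reads there may not be separable.

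The smallest library (ASC) held 20859611 counts and the largest (QSC of mouse 1) 29279686. Of these, the 38 genes took 2113 counts in QSC of mouse 1, 4455 in mouse 3, 5252 in ASC, 2718 in Pax7-positive iMPCs, 2948 in Pax7-negative iMPCs and 8105 in MEFs, which was 0.00722% to 0.0348% of a library. A count of 0 allows up to 3 counts, or 0.0965 to 0.143 CPM depending on the library, where CPM are counts scaled to library size with TMM factors, the unit used here for a gene across libraries. Pax7 stood at 34.5 and 160 CPM in QSC, 19.8 in ASC, 37.8 and 6.25 in the positive and negative iMPC fractions, and 0 in MEFs. The sum of 6 fibroblast markers was 258 and 352 CPM in QSC, 6.89 in ASC, 98 in Pax7-positive iMPCs, 2280 in Pax7-negative iMPCs and 9190 in MEFs. Dcn made up 206 and 312 CPM of the QSC sums, and Col1a1 8920 CPM of the MEF sum. Dcn (417 against 40.6 CPM), Lum (250 against 101) and Pdgfra (105 against 73.8) were higher in Pax7-negative iMPCs than in MEFs. So were Thy1 (61.5 against 33.9 CPM) and Twist2 (68.6 against 18.1). Mouse 1 of QSC carried more endothelial markers (6 genes, 97.8 against 30.6 CPM in mouse 3) and more erythroid markers (4 genes, 796 against 10.4 CPM). The pair also differed in the sex-linked genes Xist (0.0954 and 530 CPM) and Ddx3y (455 and 0.226 CPM). In such bulk samples fewer cells of a type and less RNA per cell cannot be told apart.

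Levels between genes are given as the deposited RPKM (reads scaled to gene length and library size), and a gene is called detected at 1 RPKM or more. By RPKM the highest gene was a HoxB gene in both iMPC fractions and Hoxa10 in the 4 other libraries. This ranking depends on the gene lengths used, 830 bases for Hoxb7 and 1045 for Hoxa10. By CPM, without length, Hoxd8 led in Pax7-negative iMPCs (10 against 9.79 for Hoxb2). Hoxc8 led in QSC of mouse 3 (36.5 against 18.9 for Hoxa10). QSC of mouse 1 detected 12 members, mouse 3 16, ASC and Pax7-positive iMPCs 21 each, Pax7-negative iMPCs 22 and MEFs 27. Hoxa10, a posterior gene needed for limb and urogenital patterning, was highest in QSC (9.22 and 13.8 RPKM), ASC (56.2) and MEFs (55.7). Hoxb7, a central gene, was highest in both iMPC fractions (11 RPKM in the positive and 7.89 in the negative), followed by Hoxb2, an anterior gene of hindbrain patterning (8.3 and 7.03 RPKM). Hoxb1 had 0 counts in all 6 libraries, Hoxd1 had 3 counts, all in Pax7-negative iMPCs, and Hoxb13 had 1 count in ASC and 8 in MEFs.

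**Figure D1:**
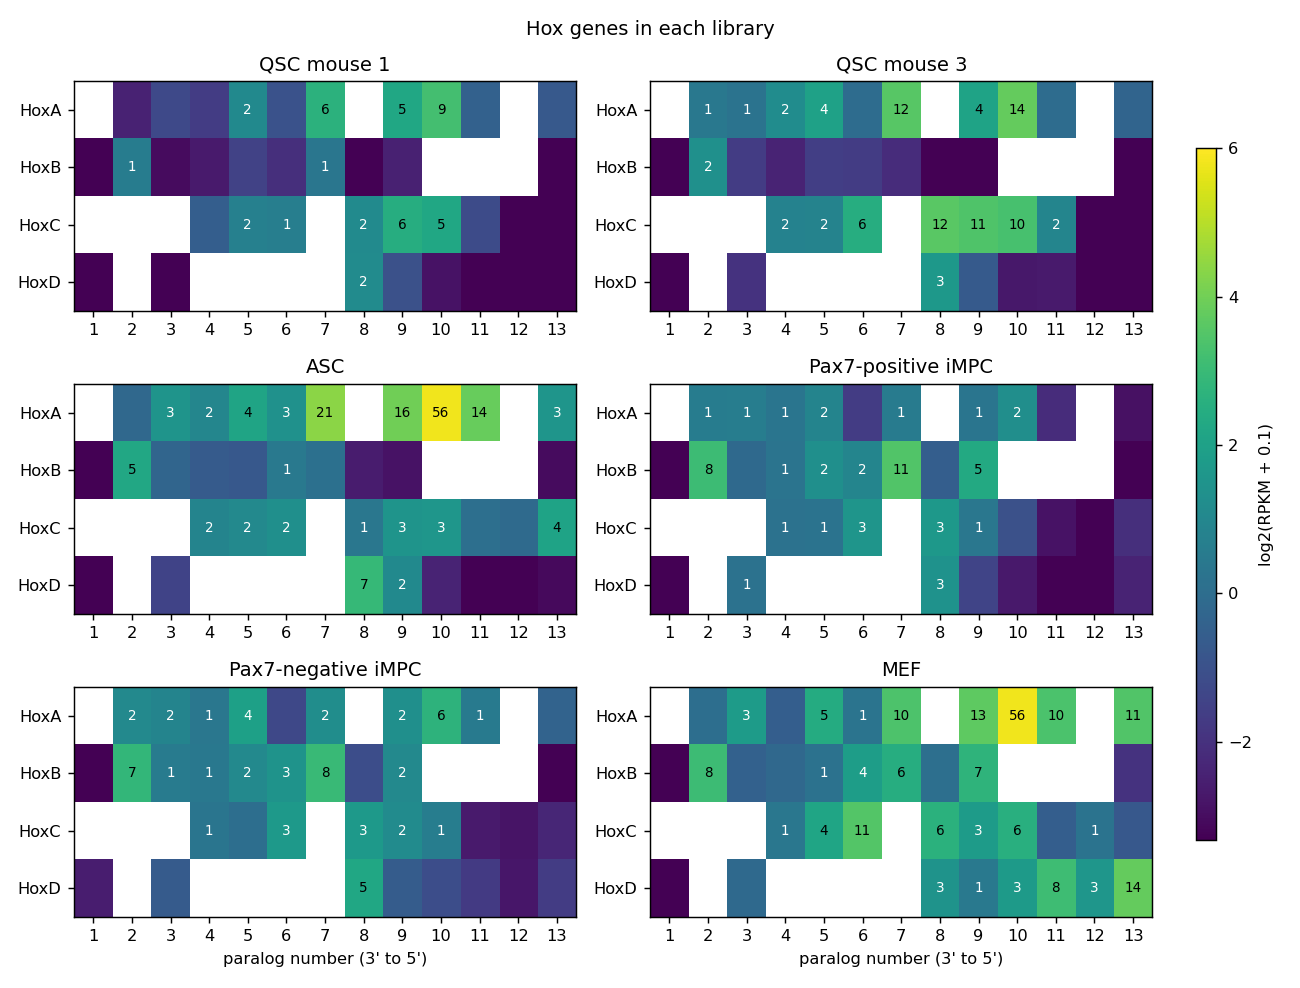
Level of each Hox gene in the 6 libraries as log2 of RPKM plus 0.1 (colour), with the cluster on the vertical and the paralog number on the horizontal axis. Numbers are RPKM for genes at 1 or more, and white squares show no gene. HoxA of ASC and MEFs peaks at Hoxa10 (56.2 and 55.7 RPKM), and Hoxd10 to Hoxd13 reach 1 RPKM in MEFs alone. HoxB has 6 and 7 genes at 1 RPKM or more in the positive and negative iMPC panels and 5 in MEFs. It has 2 and 1 in QSC of mouse 1 and mouse 3 and 2 in ASC.

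The shares of HoxA and HoxB in the summed Hox RPKM separated the iMPCs from the other libraries, and those of HoxC and HoxD did not. HoxA held 52.6% and 44.7% in QSC, 76.8% in ASC, 21.4% in Pax7-positive iMPCs, 35% in Pax7-negative iMPCs and 54.3% in MEFs. HoxB held 6.75% and 3.71% in QSC, 5.47% in ASC, 54.4% and 36.8% in the positive and negative iMPC fractions, and 13.3% in MEFs. Both iMPC fractions lay above, and all 4 other libraries below, a HoxB share of 20%. The summed HoxB level did not separate them from MEFs. It was 30.9 and 24.6 RPKM in the positive and negative iMPC fractions, 27.7 in MEFs, 3.12 and 3.38 in QSC and 8.87 in ASC. The summed HoxA level was 12.2 and 23.4 RPKM in the positive and negative iMPC fractions and 113 in MEFs. HoxC held 35.1% and 47.4% in QSC and between 11.6% (ASC) and 18.3% (Pax7-negative iMPCs) elsewhere. HoxD held 4.21% to 9.89% in 5 libraries and 15.9% in MEFs.

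Along the clusters, posterior genes held the smallest share in iMPCs. Their share of the summed RPKM was 56% and 46.5% in QSC, 63.1% in ASC and 66.1% in MEFs, against 19.1% in Pax7-positive and 27.1% in Pax7-negative iMPCs. Anterior genes held 24.9% and 20.8% in the positive and negative iMPC fractions and 4.13% to 7.62% in the other 4 libraries. The mean paralog number weighted by RPKM gives the same order within HoxA: 5.61 and 6.93 in the positive and negative iMPC fractions, 8.45 and 7.77 in QSC, 8.79 in ASC and 9.29 in MEFs. In HoxB it was 5.58 and 5.1 in the iMPCs, above QSC (4.49 and 2.77) and ASC (3.59) and below MEFs (5.66). That order rested on 1 gene per library. Without each library's highest HoxB gene the iMPCs were lowest, at 4.8 and 4.2. QSC then had 6.57 and 4.93, ASC 5.43 and MEFs 7.24. In HoxD it was 11.3 in MEFs and 6.94 to 8.18 in the other 5 libraries.

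**Figure D2:**
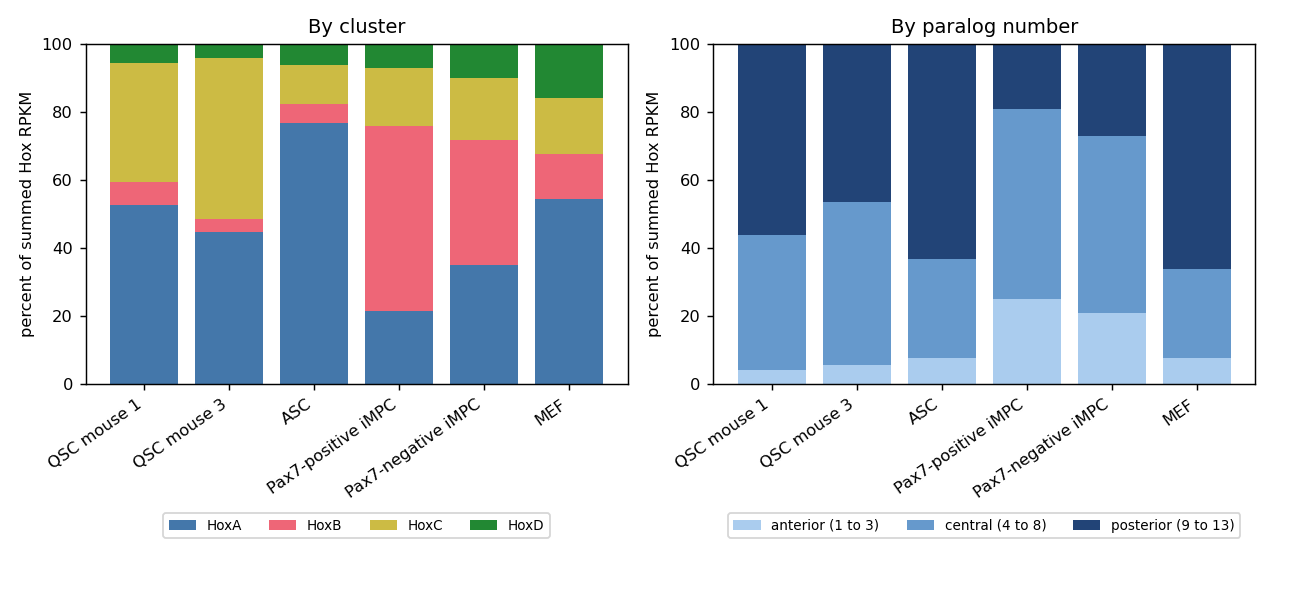
Share of the summed Hox RPKM by cluster (left) and by paralog number (right) in each of the 6 libraries, as stacked bars that add to 100%. HoxB is 54.4% and 36.8% in the iMPC bars and at most 13.3% in the others, and posterior genes are at most 27.1% in the iMPC bars and at least 46.5% in the others.

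The most 5′ gene detected in HoxA was Hoxa10 in both QSC libraries and Pax7-positive iMPCs, Hoxa11 in Pax7-negative iMPCs, and Hoxa13 in ASC and MEFs. In HoxB it was Hoxb7 and Hoxb2 in QSC of mouse 1 and mouse 3, Hoxb6 in ASC, and Hoxb9 in both iMPC fractions and MEFs. HoxC reached Hoxc10 and Hoxc11 in QSC, Hoxc13 in ASC, Hoxc9 and Hoxc10 in the positive and negative iMPC fractions, and Hoxc12 in MEFs. HoxD ended at Hoxd8 in QSC and both iMPC fractions, at Hoxd9 in ASC and at Hoxd13 in MEFs. ASC thus reached the end of HoxA and HoxC but not of HoxD.

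Within a paralog group, libraries used copies from different clusters. In group 9, Hoxc9 was highest in QSC (5.56 and 10.6 RPKM), Hoxa9 in ASC (15.6), in Pax7-negative iMPCs (2.41) and in MEFs (12.7), and Hoxb9 in Pax7-positive iMPCs (5.01). In Pax7-negative iMPCs Hoxa9 held 33.6% of the group's RPKM, beside levels of 2.18 for Hoxc9, 2.02 for Hoxb9 and 0.562 RPKM for Hoxd9. Group 10 was led by Hoxa10 in all 6 libraries, with 58.4% to 95% of the group's RPKM. Group 13 was led by Hoxa13 in QSC (0.514 and 0.702 RPKM), by Hoxc13 in ASC (4.15) and by Hoxd13 in MEFs (13.8). These 3 genes are the most 5′ of their clusters, and Hoxa13 and Hoxd13 together pattern the digits.

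Differences from QSC were tested with edgeR's quasi-likelihood test, adjusted by Benjamini-Hochberg over the 17116 genes tested. The spread in these tests comes from the 2 QSC mice alone, so each lone library is assumed to vary as they do, and the 4 comparisons share the QSC libraries. Of the 38 members, 35 were tested; Hoxb1, Hoxb13 and Hoxd1 were too low. Members near 0 in both QSC libraries passed through the libraries where they are high. Among them are Hoxb8, Hoxb9, Hoxc12, Hoxc13 and Hoxd10 to Hoxd13, so counts over the 35 are descriptions. Pax7-positive iMPCs had 2 members called higher and 5 lower, where 20.6% of all genes were called (11.3% higher, 9.31% lower). Pax7-negative iMPCs had 2 higher and 1 lower (18.6% of all genes called, 12.1% higher and 6.57% lower). ASC had 3 higher and 1 lower (20.1% of all genes called, 11.8% higher and 8.24% lower). MEFs had 11 higher and 0 lower, where 19.4% of all genes were called, 11.3% higher and 8.03% lower. MEF calls such as Hoxb8, Hoxb9, Hoxc13 and Hoxd10 to Hoxd13 are members that passed the filter where they are high. The MEF count therefore cannot be read against its background. At an unadjusted edgeR p under 0.05, 14 members were higher and 0 lower in MEFs, and DESeq2 called 7 higher and 0 lower. The median log2 difference of the 35 was -0.66, 0.65, 0.7 and 1.65 in the same order, and that of all genes -0.03, 0.15, 0 and 0. With library size alone as the scaling, the median of all genes moved to between 0.59 and 0.86, and the calls became 1 higher and 0 lower in each iMPC fraction, 3 and 0 in ASC, and 9 and 0 in MEFs. The log2 differences of the lower genes stayed negative under that scaling, at -4.16 for Hoxc10, -2.74 for Hoxc9, -2.7 for Hoxa7 and -2.28 for Hoxa10 in Pax7-positive iMPCs, without passing the test.

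A rule of size was used beside the test: a member had to be 4-fold or more apart on CPM and to reach 5 CPM on the higher side. Against QSC it took 3 members higher and 5 lower in Pax7-positive iMPCs (19.4% of all genes, 9.78% higher and 9.65% lower). It took 1 higher and 3 lower in Pax7-negative iMPCs (18.8% of all genes, 11.0% higher and 7.73% lower). In ASC it took 3 higher and 2 lower (19.9% of all genes, 11.1% higher and 8.83% lower), and in MEFs 8 higher and 0 lower (19.5% of all genes, 10.8% higher and 8.73% lower). Hoxb9, Hoxc13 and Hoxd10 to Hoxd13, which passed the filter where they are high, are among those taken, so these counts are descriptions. The balance in iMPCs rested on the minimum level: with a minimum of 1 CPM the rule took 8 higher and 7 lower in the positive and 7 higher and 4 lower in the negative fraction, and with RPKM 8 and 5, and 8 and 2. Beyond the calls of the test, the rule added in Pax7-positive iMPCs Hoxb5 and Hoxb7 as higher and Hoxa9 as lower.

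**Figure D3:**
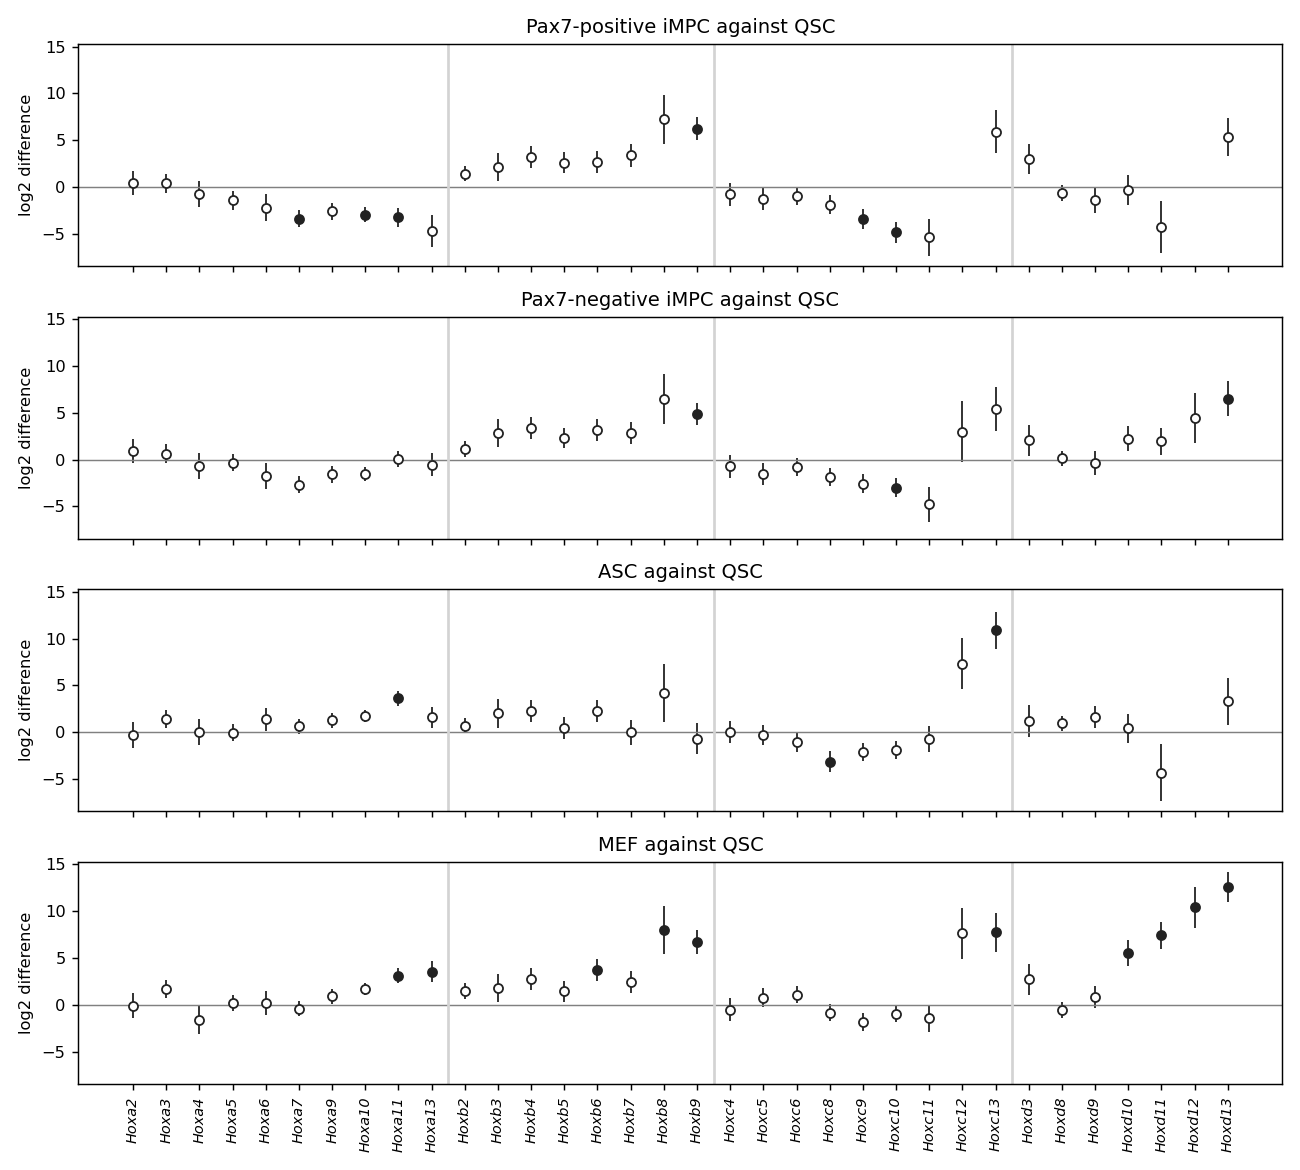
Log2 difference from QSC of tested Hox genes in edgeR's model, in 4 panels ordered by cluster and paralog number. Bars are standard errors derived from the F statistic of edgeR's test. Filled points passed an adjusted p of 0.05, and genes with 0 counts on both sides have no point. Fitted values of genes with 0 counts in a group depend on the prior count. The HoxB points lie above 0 in the iMPC and MEF panels, and HoxA slopes down towards its 5′ end in the panel of Pax7-positive iMPCs.

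In HoxA, Pax7-positive iMPCs were the lowest of the 6 libraries for each gene from Hoxa5 to Hoxa13. Hoxa7, a central gene of the thoracic region, had 10.5 and 18.7 CPM in QSC, 22.5 in ASC, 1.42 in Pax7-positive iMPCs, 2.3 in Pax7-negative iMPCs and 10.9 in MEFs. Both iMPC values lay below all 4 others. It fell in Pax7-positive iMPCs by 3.36 ± 0.96 (SE) on the log2 scale (edgeR adjusted p = 0.0199, by mouse -2.82 and -3.65). Hoxa9, a posterior gene also known from blood stem cells, had 8.73 and 7.42 CPM in QSC, 19.3 in ASC, 1.32 and 2.74 in the positive and negative iMPC fractions, and 15.2 in MEFs. It passed edgeR's test in no comparison, except in Pax7-positive iMPCs when the variation was preset to 0.4. DESeq2 called it in Pax7-positive iMPCs. Hoxa10 stood at 13.4 and 18.9 CPM in QSC, 52.7 in ASC, 2.09 in Pax7-positive iMPCs, 5.57 in Pax7-negative iMPCs and 50.6 in MEFs. The iMPC fractions were again the lowest, and Hoxa10 fell in the positive fraction by 2.95 ± 0.78 on the log2 scale (edgeR adjusted p = 0.013, by mouse -2.64 and -3.13).

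At the end of HoxA, ASC and MEFs were high and Pax7-positive iMPCs lowest. Hoxa11, which patterns the middle limb, stood at 2.15 and 2.76 CPM in QSC, 30.3 in ASC, 0.257 in Pax7-positive iMPCs, 2.6 in Pax7-negative iMPCs and 21.2 in MEFs. ASC and MEFs were high, QSC and Pax7-negative iMPCs lay side by side, and Pax7-positive iMPCs, with 8 counts, were lowest. By edgeR Hoxa11 rose in ASC by 3.62 ± 0.79 (adjusted p = 0.00374) and in MEFs by 3.11 ± 0.79 (adjusted p = 0.0102), and fell in Pax7-positive iMPCs by 3.23 ± 1.02 (adjusted p = 0.0334). It shares 35% of its exon bases with the antisense Hoxa11os, so their reads may not be separable. Hoxa13 had 0.811 and 1.04 CPM in QSC, 2.84 in ASC, 0.0322 in Pax7-positive iMPCs (1 count), 0.642 in Pax7-negative iMPCs and 10.8 in MEFs. MEFs stood above all other libraries, and Hoxa13 rose there by 3.54 ± 1.11 (edgeR adjusted p = 0.033; DESeq2 adjusted p = 0.0564).

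Hoxa2 and Hoxa4 were higher in mouse 3 than in mouse 1 of QSC. Hoxa2 stood at 0.286 and 3.93 CPM in QSC and 1.72 to 3.95 in the other libraries, and Hoxa4 at 0.477 and 4.66 CPM in QSC and 0.822 to 2.63 elsewhere. For both genes mouse 1 was the lowest library, and Hoxa4 was highest in mouse 3. Hoxa3, Hoxa5 and Hoxa6 had 1.38 to 9.08, 2.8 to 9.63 and 0.322 to 3.92 CPM, and none passed the test in any comparison. With the variation preset to 0.4, edgeR called Hoxa6 in Pax7-positive iMPCs and Hoxa3 in MEFs.

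Hoxb9 was the HoxB gene called higher in both iMPC fractions and in MEFs. All 8 tested HoxB members had a positive log2 difference from QSC in Pax7-positive iMPCs (median 2.93), in Pax7-negative iMPCs (median 3.03) and in MEFs (median 2.61), though of these 24 differences 5 passed the test. In ASC 6 of 8 were positive, with a median of 1.36 and no call. Hoxb9, the most 5′ of the main HoxB block, had 0.286 and 0 CPM in QSC, 0.0862 in ASC (2 counts), 10.9 in Pax7-positive iMPCs, 4.29 in Pax7-negative iMPCs and 14.9 in MEFs. The 3 satellite cell libraries lay below 0.3 CPM and the 3 others above 4. Hoxb9 passed the filter through these 3 others, where it is high, so its calls are descriptions. In edgeR's test Hoxb9 rose by 6.23 ± 1.25 in Pax7-positive iMPCs (adjusted p = 0.0023), by 4.88 ± 1.22 in Pax7-negative iMPCs (adjusted p = 0.0103) and by 6.68 ± 1.27 in MEFs (adjusted p = 0.00144). Against mouse 1 and mouse 3 alone these were 4.92 and 7.14, 3.58 and 5.81, and 5.36 and 7.59 on the log2 scale.

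Hoxb7 had 1.34 and 0.136 CPM in QSC, 0.732 in ASC, 7.72 and 5.4 in the positive and negative iMPC fractions, and 4 in MEFs. The iMPC and MEF values lay above both mice, but mouse 3 had 0.102 times the level of mouse 1. Hoxb7 was not called by edgeR, except in both iMPC fractions when no filter was used or with a preset variation of 0.4, which also called it in MEFs. Hoxb2 had 3.34 and 5.52 CPM in QSC, 7.19 in ASC, 11.9 and 9.79 in the iMPC fractions, and 12.3 in MEFs, with no call. Hoxb5 stood at 1 and 0.859 CPM in QSC, 1.25 in ASC, 5.66 and 4.63 in the iMPC fractions, and 2.54 in MEFs. It had no call except in both iMPC fractions with the preset variation. Hoxb6, a central gene, stood at 0.334 and 0.497 CPM in QSC, 1.98 in ASC, 2.64 and 3.85 in the iMPC fractions, and 5.42 in MEFs. It rose in MEFs by 3.69 ± 1.17 (edgeR adjusted p = 0.0342). Hoxb8 had 0 counts in both mice, 2 in ASC, 23 and 13 in the iMPC fractions and 33 in MEFs. It was called higher in MEFs (edgeR adjusted p = 0.039), at least 17.7-fold above QSC with 3 counts summed over both mice as the floor. Hoxb8 passed the filter where it is high, so this call is a description. DESeq2 called neither Hoxb6 nor Hoxb8. Hoxb2 and Hoxb3 share 27.3% and 52.9% of their exon bases with the antisense Hoxb3os.

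Hoxc10 was the member called lower in both iMPC fractions. This gene, a posterior HoxC gene of the lumbar region and hindlimb, stood at 12.1 and 24.5 CPM in QSC, 4.91 in ASC, 0.643 in Pax7-positive iMPCs, 2.26 in Pax7-negative iMPCs and 9.53 in MEFs. The iMPC fractions were lowest and QSC highest. By edgeR Hoxc10 fell by 4.82 ± 1.12 in Pax7-positive iMPCs (adjusted p = 0.00603, by mouse -4.08 and -5.09) and by 3.01 ± 1 in Pax7-negative iMPCs (adjusted p = 0.0435, by mouse -2.38 and -3.39). Hoxc9 had 11.7 and 20.9 CPM in QSC, 3.66 in ASC, 1.54 and 2.7 in the iMPC fractions, and 4.45 in MEFs. Both mice lay above every other library, and Hoxc9 fell in Pax7-positive iMPCs by 3.4 ± 1.06 on the log2 scale (edgeR adjusted p = 0.0311, by mouse -2.86 and -3.7).

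Hoxc8, a central gene of the brachial and thoracic region, stood at 6.82 and 36.5 CPM in QSC, 2.46 in ASC, 5.89 and 6.05 in the iMPC fractions, and 12.1 in MEFs. ASC was lowest, and Hoxc8 fell there by 3.14 ± 1.08 on the log2 scale (edgeR adjusted p = 0.0482). That difference was -1.44 against mouse 1 and -3.85 against mouse 3, and the call was lost with RLE size factors in edgeR (adjusted p = 0.0554). Hoxc6 had 3.43 and 12.1 CPM in QSC, 3.62 in ASC, 3.99 and 4.39 in the iMPC fractions, and 16.5 in MEFs, with no call. Hoxc4 and Hoxc5 lay between 1.35 and 6.65 CPM in all 6 libraries and passed no test.

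Hoxc13, the 5′ end of HoxC, was highest in ASC. This gene, known from hair and nail formation, had 0 counts in both QSC libraries, 213 in ASC, 9 and 6 in the iMPC fractions, and 28 in MEFs. ASC stood apart at 9.18 CPM, at least 132-fold above QSC when 3 counts summed over both mice are taken as the floor. In edgeR's test Hoxc13 was called higher in ASC (adjusted p = 0.00115) and in MEFs (adjusted p = 0.016, at least 15-fold). Hoxc13 passed the filter through libraries where it is high, so its calls are descriptions. Hoxc12 had 0 counts in QSC, 18 in ASC, 0 and 1 in the iMPC fractions, and 26 in MEFs. It was called by edgeR in ASC and MEFs only with no filter or with a preset variation of 0.4. Hoxc11 had 20 and 106 counts in QSC, 40 in ASC, 2 and 3 in the iMPC fractions, and 28 in MEFs. By edgeR it was called only in Pax7-positive iMPCs with no filter and in both iMPC fractions with a preset variation of 0.4. DESeq2 called it in Pax7-positive iMPCs.

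HoxD 5′ of Hoxd9 was low in every library except MEFs. Hoxd13, the terminal gene of digit patterning, had 0 counts in both QSC libraries, 1 in ASC, 6 and 13 in the iMPC fractions, and 797 in MEFs. MEFs stood at 29.8 CPM and every other library below 0.5. Against the floor the MEF level was at least 428-fold above QSC (edgeR adjusted p = 7.13e-05). Pax7-negative iMPCs, with 0.439 CPM, were also called higher for Hoxd13 (edgeR adjusted p = 0.0242, at least 6.31-fold), on 13 counts. Hoxd13 passed the filter through libraries where it is high, so its calls are descriptions.

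Hoxd12 had 176 counts in MEFs, 3 in Pax7-negative iMPCs and 0 in the 4 other libraries, and was called higher in MEFs (edgeR adjusted p = 0.00313, at least 94.5-fold). Hoxd11 had 0 and 4 counts in QSC, 0 in ASC and Pax7-positive iMPCs, 11 in Pax7-negative iMPCs and 440 in MEFs, a ratio of MEFs to QSC of 177 (95% counting interval 68.7 to 653). It was called in MEFs by edgeR (adjusted p = 0.00168) and not by DESeq2 (adjusted p = 0.363). Hoxd10 stood at 0.143 and 0.181 CPM in QSC, 0.215 in ASC, 0.129 and 0.777 in the iMPC fractions and 7.59 in MEFs, and rose in MEFs by 5.51 ± 1.37 (edgeR adjusted p = 0.00951). For Hoxd10 to Hoxd13 MEFs were the highest library and Pax7-negative iMPCs the second. All 4 genes passed the filter through libraries where they are high, so their calls are descriptions.

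Hoxd8 and Hoxd9, next in the 3′ direction, were not highest in MEFs. Hoxd8 stood at 7.87 and 10.5 CPM in QSC, 17.6 in ASC, 5.79 and 10 in the iMPC fractions, and 6.09 in MEFs, and Hoxd9 at 1.19 and 1.49 CPM in QSC, 4.05 in ASC, 0.515 and 1.01 in the iMPC fractions, and 2.39 in MEFs. ASC was the highest library for both genes, with no call. Hoxd3 had 0 and 9 counts in QSC and 11 to 53 elsewhere, and shares 53.1% of its exon bases with another gene model on the same strand.

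The iMPC fractions were next set beside MEFs, as the fibroblast library of the series. With 1 library on each side there is no replicate check, so ratios of CPM are given with exact 95% counting intervals, which cover counting error only and compare libraries, not conditions. By the rule of size, 0 members were higher and 11 lower in Pax7-positive iMPCs than in MEFs (8.91% of all genes, 3.24% higher and 5.67% lower). In Pax7-negative iMPCs 0 were higher and 11 lower (7.11% of all genes, 4.73% higher and 2.38% lower). Hoxd10 to Hoxd13, which passed the filter where they are high, are among the lower members of both. These counts are therefore descriptions and cannot be read against the shares over all genes. Hoxa7, Hoxa9, Hoxa10, Hoxa11, Hoxa13, Hoxc10 and Hoxd10 to Hoxd13 were lower in both; Hoxc6 was added in the positive and Hoxc5 in the negative fraction, and no HoxB member passed.

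In HoxA the gap between MEFs and Pax7-positive iMPCs widened gene by gene from Hoxa4 to Hoxa13. The ratio of MEFs to Pax7-positive iMPCs was 0.532 (0.306 to 0.899) for Hoxa4, 3.03 (2.36 to 3.93) for Hoxa5 and 5.11 (2.53 to 11.4) for Hoxa6. It was 7.73 (5.62 to 10.9) for Hoxa7 and 11.5 (8.33 to 16.3) for Hoxa9. For Hoxa10 it reached 24.2 (18.9 to 31.6), for Hoxa11 82.5 (41.6 to 192), and for Hoxa13, on 1 count against 289, 336 (59.8 to 13300). The estimate was higher at each of these 7 steps, although neighbouring intervals overlap at several of them. At the anterior end Hoxa2 and Hoxa3 had ratios of 0.684 and 2.39. Against Pax7-negative iMPCs the same HoxA ratios ran from 0.529 for Hoxa4 to 16.8 for Hoxa13, with the estimate higher at 6 of 7 steps.

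HoxD showed a gap at the same end, and in HoxB no member passed the rule. Hoxd3 and Hoxd8 had ratios of MEFs to Pax7-positive iMPCs of 0.811 (0.518 to 1.26) and 1.05 (0.846 to 1.31), and Hoxd9 of 4.65 (2.65 to 8.61). Beyond it the ratio was 58.9 (22.7 to 218) for Hoxd10 and 154 (70.6 to 422) for Hoxd13. Hoxd11 and Hoxd12, at 0 counts in Pax7-positive iMPCs, were at least 170-fold and 68.1-fold lower there against the floor of 3 counts. In HoxB the 8 members with counts on both sides had ratios of 0.449 (Hoxb5) to 2.05 (Hoxb6) against the positive and 0.496 (Hoxb3) to 3.48 (Hoxb9) against the negative fraction. In HoxC the ratio against the positive fraction did not rise steadily, with the estimate higher at 4 of 7 steps. It was 1.16 for Hoxc4, 4.14 for Hoxc5, 4.13 for Hoxc6, 2.06 for Hoxc8, 2.88 for Hoxc9 14.8 (9.39 to 24.7) for Hoxc10 and 16.3 (4.1 to 141) for Hoxc11. It was lower again for Hoxc13, at 3.61 (1.66 to 8.7).

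**Figure D4:**
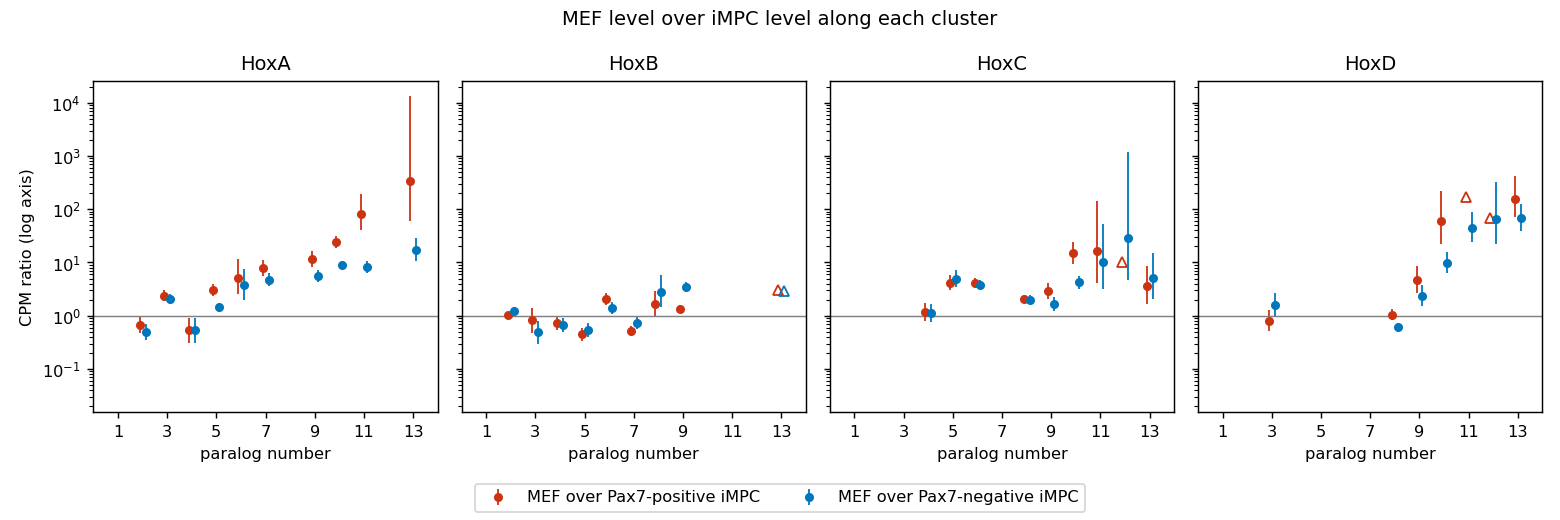
Ratio of the CPM in MEFs to that in each iMPC library along the 4 clusters, on a log axis, with exact 95% counting intervals; open triangles are lower bounds for genes at 0 counts in the iMPC library. Ratios are higher at the 5′ than at the 3′ end of HoxA and HoxD, with 336 for Hoxa13, at least 170 for Hoxd11 and 154 for Hoxd13 against Pax7-positive iMPCs, while HoxB stays between 0.449 and 3.48.

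The 2 iMPC fractions, 1 library each, were compared by the same rule of size, by which 0 members were higher and 0 lower in the positive fraction, where 4.43% of all genes were apart (0.134% higher and 4.30% lower). Most members that differ lie below 5 CPM in both fractions. Hoxa11 had 8 counts in the positive and 77 in the negative fraction, a ratio of negative to positive of 10.1 (4.88 to 24.2). Hoxa13 had 1 and 19 counts, Hoxd10 4 and 23, Hoxd11 0 and 11, and Hoxc10 20 and 67. In all 5, which are posterior genes named after their values were seen, the negative fraction was the higher. It was also higher for the central genes Hoxa5 (ratio 2.12, 1.63 to 2.78) and Hoxd8 (1.73, 1.43 to 2.1), while for the posterior gene Hoxc13 the interval of the ratio includes 1. Hoxb9 went the other way, with a positive to negative ratio of 2.55 (2.07 to 3.15), as did Hoxb7 with 1.43 (1.17 to 1.76). Hoxa4, Hoxc4 and Hoxc8 had ratios of 0.953 to 0.994 with intervals that include 1. The fibroblast markers given above moved with this split, at 98 CPM in the positive and 2280 CPM in the negative fraction with 0 of 6 markers at 0 in either. Their part in it was not tested.

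ASC and Pax7-positive iMPCs, both muscle progenitors in culture, had opposite leading clusters. By the rule of size Hoxb5, Hoxb7 and Hoxb9 (3 members) were higher in Pax7-positive iMPCs and Hoxa7, Hoxa9, Hoxa10, Hoxa11 and Hoxc13 (5 members) lower, where 7.40% of all genes were apart, 2.29% higher and 5.11% lower. Hoxb9 was 127-fold higher (34.9 to 1050, on 340 against 2 counts), and Hoxb7 10.5-fold (6.45 to 18.4). Hoxa10 was 25.2-fold lower (19.6 to 32.9), and Hoxa11 118-fold (59.4 to 274). Between ASC and MEFs no HoxA member passed the rule of size. Hoxa10 had a ratio of ASC to MEFs of 1.04 (0.963 to 1.13) and Hoxa11 of 1.43 (1.28 to 1.6), while Hoxa7 was higher in ASC at 2.06 (1.78 to 2.38) and Hoxa13 lower at 0.263 (0.198 to 0.345). Hoxd11 was at least 127-fold lower in ASC. In all, 1 member (Hoxc13) was higher and 7 (Hoxb9, Hoxc6, Hoxc8 and Hoxd10 to Hoxd13) lower in ASC than in MEFs, where 8.78% of all genes were apart, 4.71% higher and 4.07% lower. Hoxb9, Hoxc13 and Hoxd10 to Hoxd13 passed the filter where they are high, so the counts of both comparisons with ASC are descriptions. Fibroblast markers stood at 6.89 CPM in ASC and 9190 CPM in MEFs, with 0 of 6 at 0 in either, and their part in these differences was not tested.

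The 2 QSC mice did not carry the same Hox levels. Of the 22 members with 20 or more counts in either mouse, 8 were at least 2-fold higher in mouse 3 and 1 (Hoxb7) in mouse 1. Hoxa2, Hoxa4, Hoxc8 and Hoxc11 were 13.8, 9.77, 5.36 and 5.03 times as high in mouse 3. Hoxa9, Hoxc5 and Hoxb5 were within 1.2-fold (0.85, 1.02 and 0.858 times). The sums of endothelial, erythroid and immune markers were higher in mouse 1 (97.8, 796 and 204 CPM, against 30.6, 10.4 and 71.2 CPM). Lyz2 alone made up 182 and 54.4 CPM of the immune sums in mouse 1 and mouse 3. Of the 6 immune genes, Cd68 (13.5 against 13.8 CPM) and Cd3e (0.0477 against 0.181) were lower in mouse 1. Muscle markers, with sums of 3890 and 4060 CPM, differed in both directions. Pax7 (34.5 against 160 CPM), Myf5 (84.2 against 124) and Des (1750 against 3150) were lower in mouse 1. Myod1 (1840 against 630 CPM) and Myog (189 against 4.07) were higher there. The part of these differences in the Hox levels was not tested.

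Hox proteins bind DNA with TALE homeodomain partners of the Pbx, Meis and Pknox families. Of the 9 such cofactors, 1 rose in Pax7-positive iMPCs, 2 rose in Pax7-negative iMPCs, 0 were called in ASC and 1 fell in MEFs, all by edgeR's test. Over all genes tested, the shares called in these comparisons were 20.6%, 18.6%, 20.1% and 19.4%. Pbx2 stood at 2.15 and 6.19 CPM in QSC, 16.4 in ASC, 23.3 and 32.9 in the iMPC fractions, and 15.5 in MEFs, and rose in both iMPC fractions (edgeR log2 differences 2.48 ± 0.75 and 2.98 ± 0.75, adjusted p = 0.0256 and 0.0105). Meis1 stood at 3.34 and 10.5 CPM in QSC, 4.95 in ASC, 26.7 and 42.7 in the iMPC fractions, and 26.6 in MEFs, and rose in Pax7-negative iMPCs (2.62 ± 0.73, edgeR adjusted p = 0.0186). Pknox1 had 152 and 178 CPM in QSC, 54.4 in ASC, 67.4 and 45.7 in the iMPC fractions and 29 in MEFs, where it fell by 2.51 ± 0.68 on the log2 scale (edgeR adjusted p = 0.0151). Pknox2, next in level, had 36.5 and 73.6 CPM in QSC and 20.1 to 73.9 elsewhere, with no call.

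Polycomb and Trithorax genes numbered 23 in the table, and edgeR called 3 higher and 4 lower in Pax7-positive iMPCs. In the negative fraction it called 1 and 3, in ASC 3 and 2, and in MEFs 2 and 3, where 18.6% to 20.6% of all genes were called. Cbx2, the Polycomb subunit that reads H3K27 methylation, had 0.763 and 0.407 CPM in QSC and 18.8 to 31.8 in the 4 other libraries, and rose in each of them by 5 to 5.75 on the log2 scale (edgeR adjusted p = 0.00015 in Pax7-negative iMPCs, 0.000113 in the positive fraction, 0.000163 in ASC and 0.000256 in MEFs). Kdm6b, an H3K27 demethylase, stood at 281 and 324 CPM in QSC and 7.11 to 11.1 elsewhere, and Kmt2a, the methyltransferase known for keeping Hox genes active, at 102 and 149 CPM in QSC and 14.6 to 24.7 elsewhere. Both fell in all 4 comparisons, which share the QSC libraries. Phc2, a Polycomb subunit of high level, had 233 and 147 CPM in QSC and 202 to 265 elsewhere, with no call.

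Retinoic acid opens the 3′ ends of the clusters, and the Cdx factors act on their central genes. Of 8 tested genes of this input, 1 rose and 1 fell in Pax7-positive iMPCs, 3 rose and 1 fell in Pax7-negative iMPCs, 0 rose and 2 fell in ASC, and 2 rose and 1 fell in MEFs, beside 18.6% to 20.6% of all genes called. Aldh1a2, the retinoic acid-making enzyme, stood at 0.143 and 0.859 CPM in QSC, 1.85 in ASC, 3.89 in Pax7-positive iMPCs, 75.6 in Pax7-negative iMPCs and 5.08 in MEFs, and rose in both iMPC fractions and MEFs (edgeR adjusted p = 0.022, 5.86e-05 and 0.0117). Rarb, a retinoic acid receptor and target, had 11 and 7.82 CPM in QSC, 0.474 in ASC, 8.98 and 48 in the iMPC fractions, and 2.88 in MEFs. It rose in Pax7-negative iMPCs (2.35 ± 0.72, edgeR adjusted p = 0.0299) and fell in ASC by 4.3 ± 0.99 on the log2 scale (edgeR adjusted p = 0.0053). Rara, another receptor, had 21.3 and 32.6 CPM in QSC and 57.3 to 83.1 elsewhere, with no call. Cdx2 had 0 counts in all 6 libraries, and Cdx4 had 23 counts in Pax7-negative iMPCs and 0 elsewhere.

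Genes next to the clusters were followed as neighbours. Of 9 tested, 2 rose in Pax7-positive iMPCs and 1 rose in each other comparison, with 0 lower, where 18.6% to 20.6% of all genes were called. Evx2, which lies beyond Hoxd13, had 2 counts in Pax7-positive iMPCs, 43 in MEFs and 0 in the 4 other libraries, and was called higher in MEFs (edgeR adjusted p = 0.0394). It thus was high in the same library as Hoxd10 to Hoxd13, and like them it passed the filter where it is high, so its call is a description. Cbx5, beside HoxC and the neighbour of the highest level, had 47.4 and 69.2 CPM in QSC and 88.4 to 166 elsewhere, with no call. Mtx2, on the other side of HoxD, stood at 22.9 and 26 CPM in QSC and 53.3 to 80.6 elsewhere and rose in Pax7-positive iMPCs by 1.72 ± 0.57 (edgeR adjusted p = 0.0419). Smug1, beside HoxC, rose in both iMPC fractions (2.7 ± 0.69 and 2.21 ± 0.69, edgeR adjusted p = 0.0109 and 0.0331), and Calcoco1, also beside HoxC, rose in ASC by 2.51 ± 0.58 (edgeR adjusted p = 0.0056).

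Of the non-coding transcripts of the clusters, Hotair, which is transcribed antisense between Hoxc11 and Hoxc12, had 68 and 182 counts in QSC, 18 in ASC, 0 in both iMPC fractions and 3 in MEFs. Satellite cells thus held it and iMPCs gave no count. It fell in MEFs (edgeR adjusted p = 0.0314) and was called lower in the positive and negative iMPC fractions (edgeR adjusted p = 0.00785 and 0.00863). Hoxa11os had 43 and 59 counts in QSC, 229 in ASC, 1 and 55 in the iMPC fractions, and 349 in MEFs, so it was highest in MEFs and ASC and lowest in Pax7-positive iMPCs, as was Hoxa11. It fell in Pax7-positive iMPCs (edgeR adjusted p = 0.0113). The 6 listed microRNA genes of the clusters had 0 counts in all libraries, which a library of polyadenylated RNA does not capture as mature microRNA.

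Other positional factors were followed too. Of 21 tested, 4 rose and 2 fell in Pax7-positive iMPCs, 8 rose and 1 fell in Pax7-negative iMPCs, 3 rose and 0 fell in ASC, and 7 rose and 1 fell in MEFs, against 20.6%, 18.6%, 20.1% and 19.4% of all genes called. Tbx15, a trunk and limb factor, stood at 8.68 and 10.7 CPM in QSC, 133 in ASC, 37.4 and 47.7 in the iMPC fractions, and 75.5 in MEFs, and rose in all 4 comparisons (edgeR adjusted p = 0.0244 in Pax7-positive iMPCs, 0.0107 in the negative fraction, 0.000261 in ASC and 0.00194 in MEFs). MEFs expressed both the hindlimb factor Pitx1 (396 counts) and the forelimb factor Tbx5 (191 counts), each at 0 to 2 counts in the satellite cell libraries and below 50 in the iMPC fractions. Tbx4, another limb factor of the list, was present in every library. It had 192 and 217 counts in QSC, 160 in ASC, 91 and 186 in the positive and negative iMPC fractions, and 765 in MEFs.

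The 250 bases upstream of the start of Hoxa13 and Hoxd13 are shown because these genes are the 5′ ends of HoxA and HoxD and were highest in MEFs. RefSeq's table of promoters (GRCm38.p6) held 21 of the 38 members. Motifs were searched on both strands. TATAAA stands for a TATA box and CCAAT for the box of that name. The letters GGGCGG stand for a GC box. The motif TGATTNAT is a Hox and Pbx site, and the core TTTATG is of the Cdx type. Capitals mark matches, and overlapping matches run together. Hoxa13 is chr6:52260881-52261130 on the minus strand and Hoxd13 is chr2:74667975-74668224 on the plus strand.
Hoxa13: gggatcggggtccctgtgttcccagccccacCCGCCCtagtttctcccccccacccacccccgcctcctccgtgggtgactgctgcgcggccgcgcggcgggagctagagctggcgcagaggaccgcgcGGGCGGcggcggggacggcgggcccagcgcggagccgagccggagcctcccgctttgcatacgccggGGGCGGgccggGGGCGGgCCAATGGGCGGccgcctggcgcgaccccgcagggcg
Hoxd13: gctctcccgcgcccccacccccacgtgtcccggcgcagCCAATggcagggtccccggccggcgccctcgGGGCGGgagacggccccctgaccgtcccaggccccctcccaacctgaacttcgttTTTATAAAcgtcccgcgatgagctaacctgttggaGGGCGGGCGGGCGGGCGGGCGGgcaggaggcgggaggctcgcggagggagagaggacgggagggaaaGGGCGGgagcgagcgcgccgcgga
Hoxa13 held a CCAAT and several GGGCGG matches. Hoxd13 held TATAAA in overlapping matches on both strands, a CCAAT and a run of GGGCGG. Neither window held TGATTNAT or TTTATG. Of 32851 promoter windows of this length, 12.4% held TATAAA, 33.8% CCAAT, 32.7% GGGCGG, 2.82% TGATTNAT and 10.8% TTTATG. The matches are descriptions of the sequence, and no binding was measured in this series.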

How the data were processed

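Polyadenylated RNA of the 6 libraries was sequenced from directional libraries, per the labels' protocols. Per the submitters' processing notes, the tools were STAR 2.3.0, HTSeq 0.6.0, Picard 1.100 and edgeR, with mm9 as the build. The annotation, the strand setting and each tool's role were not given in the sources used here. The authors deposited whole-number counts per gene and a table of RPKM. Tested on the files, the deposited RPKM equal counts divided by the library total and by 1 length per gene (largest relative deviation 9.33e-15), so they carry no composition scaling.

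Groups came from the labels. The members, gene lists and tests were chosen with earlier results of these data known. Counts were filtered with edgeR's default by group (17116 of 38924 genes), scaled with TMM and fitted with edgeR 4.0.16 (R 4.3.3, limma 3.58.1) over all 6 libraries, with the quasi-likelihood test and Benjamini-Hochberg adjustment at 0.05. Standard errors, given after ±, are the absolute log2 difference divided by the square root of the test's F statistic. The residual df is 1, the prior df 16.3 and the biological coefficient of variation 0.476; p-values measure the spread of the 2 QSC mice, which the labels name as separate animals. On simulated counts for ASC against QSC (17116 genes), 43 of 50 genes raised 16-fold and 7 of 50 raised 4-fold were called, 33 of 50 and 0 of 50 lowered by the same folds, and 3 of 16916 unchanged genes. The changed genes were drawn from those with a mean of 5 CPM or more, and all genes had the same variation. The rates therefore do not cover the many Hox members of lower level. Depth was 20859611 to 29279686 counts; counting intervals are exact, at 95%, and cover counting error only. By rule, values were given for members at 10 RPKM or more, called members and groups 9 to 13, and in each other list for the 2 genes of the highest CPM and for called neighbours; the other list genes, and further members, were named after their values were seen. Alternatives were RLE factors, library size alone, other filters, DESeq2 1.42.0, a preset variation of 0.4, leaving out each QSC mouse, a minimum of 1 CPM, a prior count of 0.5, RPKM in place of CPM and other detection limits. Homeoboxes were found in GENCODE transcripts by reading frame and motif. Build mm9 coordinates were not used. Some items, with their values, sequences and points in the figures, are not reported here; counts and shares over all members include them.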

Additional observations from a re-analysis of the deposited data

How the results depend on the processing

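No single log2 difference of a called member changed sign under the alternatives run, but the split of the members taken by size did in the iMPCs. Called members, main count first, were 7 in Pax7-positive iMPCs, with 1 under library size alone, 13 with no filter and 21 with a preset variation of 0.4. They were 3 in Pax7-negative iMPCs, with 1, 8 and 17 under these settings and 5 with DESeq2. In ASC they were 4, and 11 with the preset variation. In MEFs they were 11, with 18 under the preset variation, 7 with DESeq2 and 6 with a filter of 5 CPM, which removes members from the test. Counts at least 4-fold apart from QSC, with a minimum of 1 CPM and then with RPKM, were 15 and 13 in Pax7-positive iMPCs (main 8), 11 and 10 in Pax7-negative iMPCs (main 4; 3 of the 4 lower, against 4 of 11 and 2 of 10; with library size alone 4 higher and 1 lower), 8 and 8 in ASC (main 5), and 14 and 14 in MEFs (main 8). Between the iMPC fractions both settings gave 1 (main 0), and Pax7-positive iMPCs against ASC gave 13 with a minimum of 1 CPM (main 8). Leaving out either QSC mouse gave 8 to 9 in Pax7-positive iMPCs, 3 to 5 in Pax7-negative iMPCs, 4 to 6 in ASC and 9 to 10 in MEFs, with no test because no residual df is left. The median number of detected members over libraries was 21 at 1 RPKM and 8 at 3 RPKM, and 10 of 24 most 5′ genes stayed the same at 3 RPKM. The gap in HoxB share between the lower iMPC fraction and the highest other library was 23.5 points by RPKM and 20.1 by CPM. The order of the libraries by mean paralog number in HoxB changed when each library's highest gene was left out. For causes other than the filter and the number of mice, the cause was not tested. No paired analysis was possible because the groups compared share fewer than 2 replicate numbers. Depth limits the posterior members, many of which had under 10 counts in a library.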
